A study of Mus musculus with 6 samples.

Results

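The interferon receptors, the JAK kinases and the STAT factors measured here were 9 genes. These were chosen by symbol from the deposited table of read counts, with earlier results of these data known. They were Ifnar1, Ifnar2, Ifngr1, Ifngr2, Jak1, Jak2, Tyk2, Stat2 and Stat3, out of 22105 rows with a gene identifier, and all 9 were among the 12288 genes that passed the filter on low counts. RNA-seq was performed on 4T1 cells, a mouse mammary carcinoma line that serves as a model of triple-negative breast cancer. The cells were given either DMSO, the vehicle, or 10 µM P3FI-90, a small-molecule inhibitor of the histone demethylase KDM3B, and were harvested after 24 h, with 3 libraries per group. No gene was deleted or introduced in either group, and the culture held 1 cell line in medium with serum, without the lymphocytes that make interferon gamma in a tumor. The study states in general that experiments were independently repeated, but the labels do not say whether the 3 libraries of a group came from separate cultures. The p-values therefore measure the spread between these libraries, which may be technical.

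Interferons signal through pairs of transmembrane receptor chains that have no kinase activity of their own and carry JAK kinases on their cytoplasmic tails. IFNAR1, which binds TYK2, and IFNAR2, which binds JAK1, form the receptor of the type I interferons, and IFNGR1, which binds JAK1, and IFNGR2, which binds JAK2, form the receptor of interferon gamma. Ligand binding lets the kinases phosphorylate the receptor tails and the STAT proteins, which move to the nucleus. STAT2 works mainly in the complex ISGF3 with IRF9, which binds the interferon-stimulated response element (ISRE), whereas STAT3 is best known as the factor of the IL-6 family of cytokines and binds shorter palindromic sites. In carcinoma cells this pathway links the sensing of nucleic acids to antigen presentation and chemokine secretion. These proteins are controlled largely by phosphorylation, and the values here are levels of their RNA only.

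Promoter sequences are shown for Stat2, the member with the largest rise, for Ifnar2, the receptor chain that fell, and for Ifngr1 and Ifngr2, the pair that rose together. They cover the 250 bases before the start of each gene and come from RefSeq, build GRCm38.p6, whereas the submitters' processing notes name GRCm39 for the counts, so no position below belongs to the build of the count table. All 9 members had an entry. The windows lie on the plus strand at chr10:128270248-128270497 for Stat2, chr16:91372533-91372782 for Ifnar2, chr10:19591699-19591948 for Ifngr1 and chr16:91546809-91547058 for Ifngr2. Capitals mark an ISRE core in Stat2 and a STAT element in Ifnar2.
Stat2: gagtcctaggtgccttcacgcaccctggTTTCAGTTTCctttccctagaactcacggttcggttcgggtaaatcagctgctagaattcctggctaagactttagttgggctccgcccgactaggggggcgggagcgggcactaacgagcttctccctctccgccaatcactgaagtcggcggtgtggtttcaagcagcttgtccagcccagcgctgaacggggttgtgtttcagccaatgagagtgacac
Ifnar2: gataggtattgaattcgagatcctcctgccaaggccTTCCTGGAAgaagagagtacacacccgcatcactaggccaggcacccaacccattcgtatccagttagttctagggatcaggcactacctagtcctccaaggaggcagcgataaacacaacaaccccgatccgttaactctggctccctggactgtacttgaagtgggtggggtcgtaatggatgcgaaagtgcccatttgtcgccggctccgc
Ifngr1: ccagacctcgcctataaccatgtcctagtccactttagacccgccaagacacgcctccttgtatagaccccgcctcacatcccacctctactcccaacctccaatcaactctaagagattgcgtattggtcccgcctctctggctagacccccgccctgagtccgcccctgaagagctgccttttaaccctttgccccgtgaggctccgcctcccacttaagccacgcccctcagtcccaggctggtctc
Ifngr2: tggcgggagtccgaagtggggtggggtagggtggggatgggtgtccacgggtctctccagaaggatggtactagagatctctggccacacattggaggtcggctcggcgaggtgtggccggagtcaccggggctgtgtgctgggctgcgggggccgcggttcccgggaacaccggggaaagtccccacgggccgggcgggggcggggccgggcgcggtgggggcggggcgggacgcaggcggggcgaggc

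The ISRE core was searched as GAAANNGAAA on both strands, in windows from 250 bases before to 50 bases after the start. Stat2 was the 1 member of 9 that held it, from base −222 to base −213 relative to the start and as TTTCAGTTTC on the strand shown, that is, as the reverse complement. The same letters stood in 3.44% of 32851 windows of that length and in 3.03% of the 12285 windows of tested genes. The STAT element TTCNNNGAA, which reads the same on both strands, was held by 2 members. It lay from base −214 to base −206 in Ifnar2, and in Ifnar1 it ran across the start itself. In all, 8.30% of the windows held it, and 6.82% of those of tested genes. With a spacer of 2 to 4 bases in place of 3, the STAT element matched in 5 members (Ifnar1, Ifnar2, Ifngr2, Jak2 and Stat2) and in 21.6% of all windows. The promoter windows of the interferon gamma receptor chains also differed in base composition, with 59.2% G and C in Ifngr1 and 74% in Ifngr2. A match describes letters in a window and does not show that a factor binds there.

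Of the 9 members, 7 passed an adjusted p of 0.05 in edgeR's quasi-likelihood test with Benjamini-Hochberg adjustment over all 12288 genes, which was also true of 79.3% of all genes tested. Stat2 and both chains of the interferon gamma receptor were higher after P3FI-90, 3 of 9 members against 39.9% of all genes. Jak1, Jak2, Ifnar2 and Stat3 were lower, 4 of 9 members against 39.4% of all genes. Ifnar1 and Tyk2 passed in neither direction. None of the members changed by more than 1 log2 unit, whereas 23.3% of all genes passed the test by more than that. In all 9 members the ranges of normalized counts in DMSO and in P3FI-90 did not overlap, 5 being higher and 4 lower in P3FI-90, and this held for 81.2% of all genes. The median log2 fold change was 0.07 over the members and 0.01 over all genes. The members' calls in each direction were close to these shares of all genes. For changes over 1 log2 unit and for overlap, 9 genes are too few to tell the members from all genes. Nothing particular to the members as a group is thus shown. Normalized counts are read counts scaled by edgeR's TMM factors to a common library size, and in such bulk samples fewer cells that express a gene and less RNA per cell cannot be told apart.

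**Figure D1:**
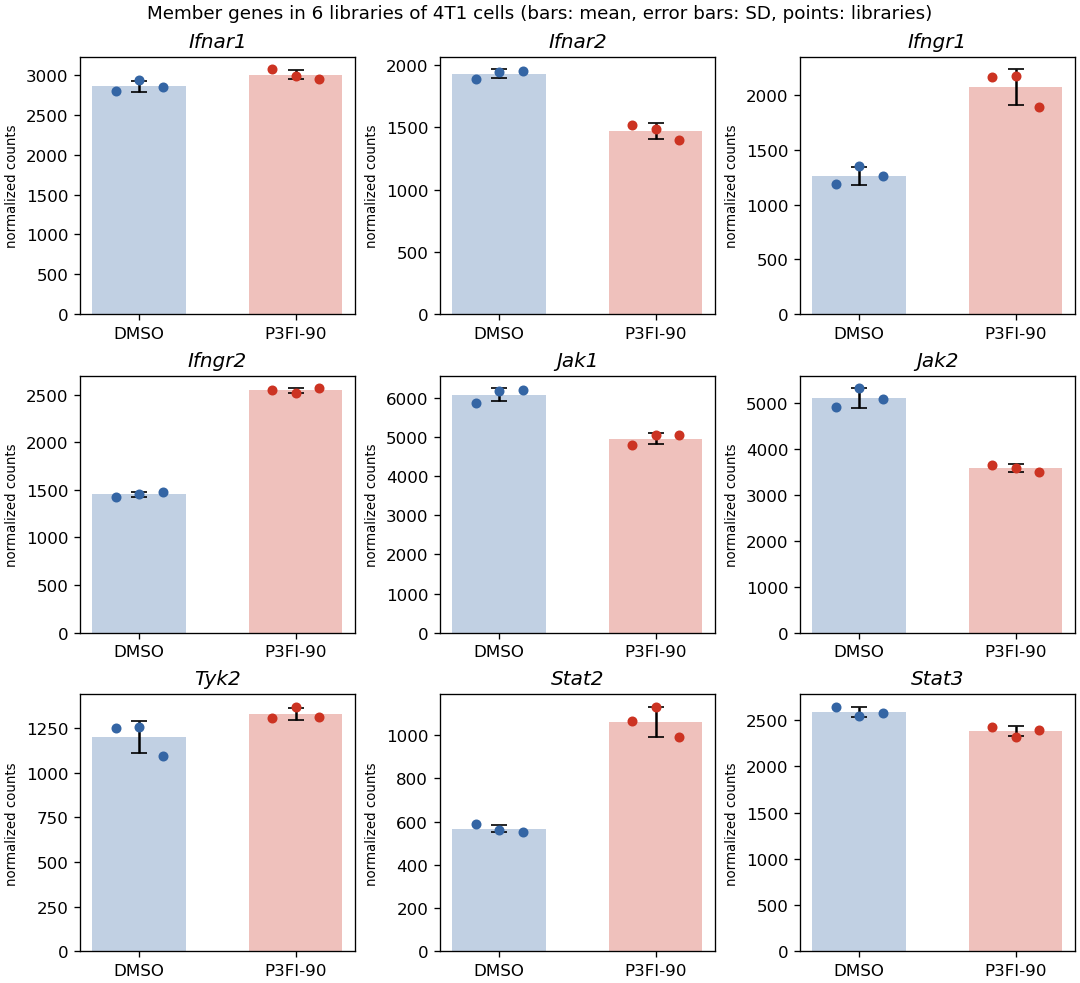
Normalized counts of each member gene in the 3 DMSO and the 3 P3FI-90 libraries (points), with the group mean (bar, from 0) and SD (error bar). Ifngr1, Ifngr2 and Stat2 stand well above their DMSO values, Jak1, Jak2 and Ifnar2 stand below theirs, and Ifnar1, Tyk2 and Stat3 differ by less.

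The libraries held between 31327094 and 37395732 counts on genes, of which 19559 to 22602 fell on the 9 members in DMSO and 22518 to 25181 in P3FI-90. TMM factors ranged from 0.927 to 0.930 in DMSO and were 1.08 in all P3FI-90 libraries. With total counts in place of TMM, every member's log2 fold change is higher by 0.21 and the median over all genes becomes 0.23. A change of scaling shifts all genes alike, so a member's distance from that median stays the same by construction. The counts do not show whether the median gene itself was unchanged. The split of calls over all genes then moves to 50.3% higher and 29.6% lower, and that of the members to 5 higher and 2 lower. The members' distance from the median over all genes was 0.89 for Stat2, 0.80 for Ifngr2, 0.70 for Ifngr1, 0.14 for Tyk2, 0.06 for Ifnar1, −0.13 for Stat3, −0.31 for Jak1, −0.41 for Ifnar2 and −0.52 for Jak2. All 10 markers of mammary epithelium were detected and all 10 were lower in P3FI-90, with a summed level of 4771 to 5028 CPM, the count scaled to a fixed library size, in DMSO and 2084 to 2183 in P3FI-90. Of 14 leukocyte markers, 7 were at 0 in every library and 12 had at most 10 counts in any. The summed level of the 14 was 0.931 to 2.28 CPM in DMSO and 3.88 to 4.15 in P3FI-90. Csf1r had the most counts of them, 34, 52 and 27 in DMSO and 114, 147 and 128 in P3FI-90. Fibroblast markers summed to 40.3 to 42.5 CPM in DMSO and 28.6 to 31.3 in P3FI-90, and endothelial markers to 0 to 0.378 and 0.615 to 1.01. Most of the fibroblast sum was Pdgfra, with 1349, 1134 and 1308 counts in DMSO and 973, 1050 and 1042 in P3FI-90. Of the 8 fibroblast markers, 4 had at most 10 counts in any library. The part of these marker differences in the members' values was not tested. Kdm3b, whose protein the compound inhibits, was itself detected at 2851 ± 67.4 normalized counts in DMSO and 3109 ± 55.7 in P3FI-90 (SD, n = 3), which is 0.13 higher on the log2 scale with an adjusted p of 0.0169 (edgeR).

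Of the chains of the type I interferon receptor, Ifnar2 fell and Ifnar1 passed in neither direction. Ifnar2 (ENSMUSG00000022971), the chain that binds type I interferons tightly, had 1889, 1947 and 1956 normalized counts in the DMSO libraries and 1521, 1488 and 1398 in the P3FI-90 libraries. Every P3FI-90 library lay below every DMSO library. The means were 1931 ± 36.4 and 1469 ± 63.5 (SD, n = 3). On the log2 scale the change was −0.39 (SE 0.05, 95% CI −0.50 to −0.28), with an adjusted p of 6.60e-06 in edgeR's quasi-likelihood test. This was 1 of 5 members called under every alternative processing. Ifnar1 (ENSMUSG00000022967), the chain that completes the receptor, had 2795, 2934 and 2848 normalized counts in DMSO and 3073, 2991 and 2955 in P3FI-90. The ranges did not overlap but lay close together, with means of 2859 ± 70.0 and 3006 ± 60.7. The log2 fold change of 0.07 (95% CI −0.02 to 0.17) did not pass the edgeR test (adjusted p = 0.144), and 7.05% of all genes had a smaller absolute change. Its value was 0.29 with total counts (adjusted p = 3.39e-05) and −0.08 after a trend with gene length and GC content was removed (adjusted p = 0.0879).

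Ifnar2 shares exons with Gm21970, an annotated read-through gene on the same strand, and 7.89% of its transcript windows of 50 bases also occur in that gene. Gm21970 was listed at 0 in 5 libraries and at 130 counts in P3FI-90 library 3, the library in which Ifnar2 was lowest. When those counts were added to Ifnar2, its log2 fold change was −0.35 (adjusted p = 9.55e-06 in edgeR).

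Within a library, the ratio of 2 genes does not depend on how the library is scaled. The trend in length and GC moved the members by unlike amounts, and the ratios were not computed with it removed. The log2 ratio of Ifnar2 to Ifnar1 counts was −0.57 ± 0.02 in DMSO and −1.03 ± 0.04 in P3FI-90 (SD, n = 3). The ratio was thus 0.723 times its DMSO value, with no overlap between the groups. An exact two-sided permutation test gave p = 0.1, the smallest that 3 against 3 libraries allow (adjusted p = 0.125 over the 5 ratios computed). Per kilobase of annotated exon, Ifnar2 stood above Ifnar1 in DMSO at 580 against 481 normalized counts, and below it in P3FI-90 at 441 against 506. This change of order rests on the length used, because Ifnar2 had fewer counts than Ifnar1 in both groups (ratios of 0.675 and 0.488). The summed exons of Ifnar1 span 5940 bases and its longest transcript 3909, against 3329 and 3047 for Ifnar2.

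Both chains of the interferon gamma receptor rose. Ifngr1 (ENSMUSG00000020009), the chain that binds the ligand, had 1185, 1349 and 1260 normalized counts in DMSO and 2163, 2176 and 1891 in P3FI-90. All 3 P3FI-90 libraries were far above the DMSO range, and the third was lower than the others. The means of 1265 ± 82.0 and 2077 ± 161 gave a log2 fold change of 0.72 (SE 0.07, 95% CI 0.57 to 0.86), with an adjusted p of 1.79e-07 in edgeR. Ifngr2 (ENSMUSG00000022965), the chain that brings in JAK2, had 1421, 1454 and 1481 normalized counts in DMSO and 2553, 2519 and 2567 in P3FI-90. The libraries of a group lay closer together than for any other member in P3FI-90, with a coefficient of variation of 0.951%. The means of 1452 ± 30.1 and 2546 ± 24.2 gave a log2 fold change of 0.81 (SE 0.05, 95% CI 0.71 to 0.91), with an adjusted p of 1.22e-09 in edgeR. The log2 ratio of Ifngr2 to Ifngr1 was 0.20 ± 0.08 in DMSO and 0.30 ± 0.13 in P3FI-90, and its groups overlapped. That difference of 0.10 gave an exact two-sided permutation p of 0.5.

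Ifnar2, Il10rb, Ifnar1 and Ifngr2 follow each other on mouse chromosome 16 in the RefSeq annotation, with no other protein-coding gene listed between them. Of the 4, Ifnar2 and Il10rb fell, Ifngr2 rose and Ifnar1 passed in neither direction. Il10rb, the chain shared by the receptors of interferon lambda and IL-10, changed by −0.40 on the log2 scale (SE 0.07, adjusted p = 1.23e-04 in edgeR), beside −0.39 for Ifnar2, 0.07 for Ifnar1 and 0.81 for Ifngr2. Its means were 1028 ± 2.68 normalized counts in DMSO and 777 ± 58.3 in P3FI-90.

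Of the kinases, Jak1 and Jak2 fell. Jak1 (ENSMUSG00000028530), which serves the receptors of all 3 types of interferon, had 5887, 6175 and 6199 normalized counts in DMSO and 4795, 5044 and 5046 in P3FI-90. The groups were separate, with means of 6087 ± 174 and 4962 ± 145 (SD, n = 3). The log2 fold change was −0.29 (SE 0.04, 95% CI −0.38 to −0.21; adjusted p = 5.16e-06, edgeR). With total counts it was −0.08 and did not pass (adjusted p = 0.0655). With the trend in length and GC removed it was −0.54 (adjusted p = 1.80e-09). Its exons overlap those of Raver2 on the opposite strand, which had at most 8 counts in a library. Jak2 (ENSMUSG00000024789), the kinase of IFNGR2 and of many hormone and growth factor receptors, had 4913, 5338 and 5095 normalized counts in DMSO and 3661, 3602 and 3499 in P3FI-90. Its P3FI-90 libraries lay further below the DMSO range than those of any other member that fell, relative to its level. The means of 5115 ± 213 and 3588 ± 82.1 gave a log2 fold change of −0.51 (SE 0.04, 95% CI −0.60 to −0.42), with an adjusted p of 3.32e-08 in edgeR. Jak2 thus fell while Ifngr2, the receptor chain it binds, rose.

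Tyk2 (ENSMUSG00000032175), the kinase of IFNAR1, had 1249, 1256 and 1095 normalized counts in DMSO and 1305, 1369 and 1312 in P3FI-90. The third DMSO library was the lowest of all 6, and the groups were close. The means of 1200 ± 90.9 and 1329 ± 34.8 gave a log2 fold change of 0.15 (SE 0.07, 95% CI 0.01 to 0.29), and the adjusted p of 0.05004 in edgeR lay just above the threshold. It passed under 7 of 18 alternatives, among them DESeq2's size factors (adjusted p = 0.0397) and limma-voom (adjusted p = 0.0440). In edgeR it did not pass with upper quartiles (adjusted p = 0.140) or with the trend in length and GC removed (adjusted p = 0.319). Without DMSO library 3 its value was 0.08 and did not pass (adjusted p = 0.254, edgeR). Leaving out a library gave values from 0.08 to 0.18. Of its transcript windows, 7.52% occur in other genes, among them one that overlaps it on the opposite strand, and the strandedness of the counting is not given in the sources used here.

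Between kinases, the log2 ratio of Jak2 to Jak1 moved from −0.25 ± 0.04 to −0.47 ± 0.07 and that of Tyk2 to Jak1 from −2.35 ± 0.14 to −1.90 ± 0.04, with no overlap between the groups in either ratio. Both had an exact two-sided permutation p of 0.1 and an adjusted p of 0.125. Tyk2 was therefore a larger fraction of Jak1 in every P3FI-90 library than in any DMSO library, and Jak2 a smaller one.

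**Figure D2:**
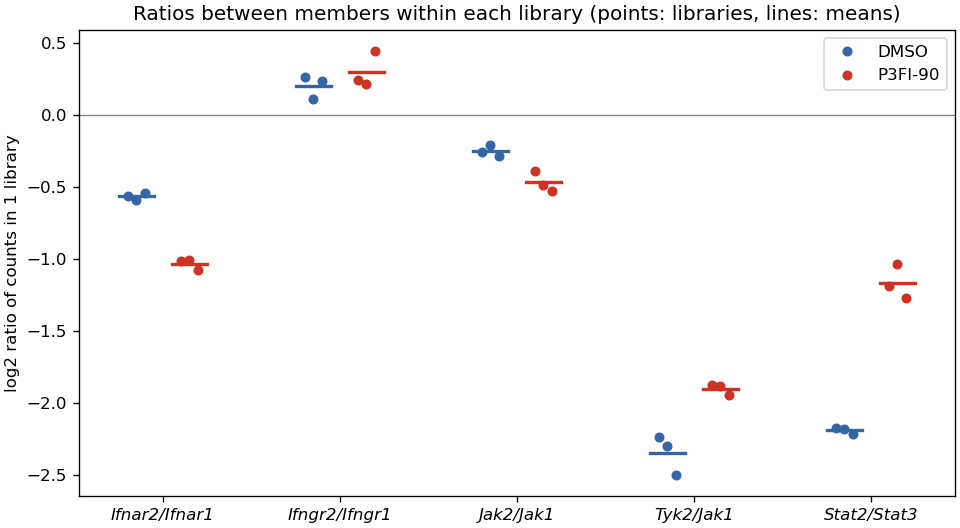
Log2 ratios of the read counts of 2 members within each library (points), with group means (lines), for 5 pairs of members. The Stat2 to Stat3 ratio shows the largest shift, from −2.19 to −1.16, and the Ifngr2 to Ifngr1 ratio is the 1 pair whose groups overlap.

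Stat2 rose and Stat3 fell slightly, although Stat3 turned to a positive value with total counts. Stat2 (ENSMUSG00000040033), the subunit of ISGF3, had 586.9, 561.2 and 554.2 normalized counts in DMSO and 1064, 1132 and 993.3 in P3FI-90. The lowest P3FI-90 library was far above the highest DMSO library. The means of 567 ± 17.2 and 1063 ± 69.4 (SD, n = 3) gave a log2 fold change of 0.91 (SE 0.07, 95% CI 0.75 to 1.07), with an adjusted p of 4.93e-08 in edgeR. This was the largest change among the members, and 72.1% of all genes had a smaller absolute change. Stat3 (ENSMUSG00000004040) had 2647, 2542 and 2578 normalized counts in DMSO and 2423, 2321 and 2399 in P3FI-90. The groups did not overlap, but the lowest DMSO and the highest P3FI-90 library were close. The means of 2589 ± 53.3 and 2381 ± 53.3 gave a log2 fold change of −0.12 (SE 0.05, 95% CI −0.22 to −0.02; adjusted p = 0.0278, edgeR). The call was lost without DMSO library 1 (−0.11, adjusted p = 0.0639) and without P3FI-90 library 2 (−0.11, adjusted p = 0.0878), and with total counts the value was 0.09 (adjusted p = 0.0799). With the trend in length and GC removed it was −0.37 (adjusted p = 2.70e-06). Its exons also overlap those of Stat5a on the opposite strand. Stat5a fell from 640 ± 54.7 to 533 ± 37.4 normalized counts (log2 fold change −0.26, adjusted p = 0.0176, edgeR). The part of Stat5a reads in the Stat3 counts was not tested. The log2 ratio of Stat2 to Stat3 was −2.19 ± 0.02 in DMSO and −1.16 ± 0.12 in P3FI-90, so that Stat2 was 2.04 times as abundant relative to Stat3 (exact two-sided permutation p = 0.1, adjusted p = 0.125).

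**Figure D3:**
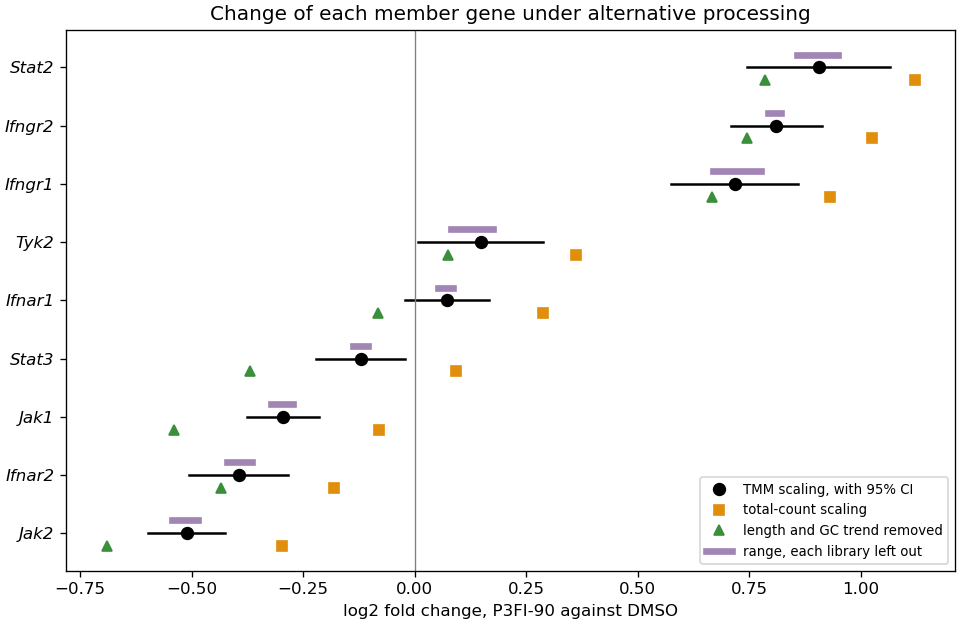
Log2 fold change of each member, P3FI-90 against DMSO, with its 95% confidence interval (black), its range with each library left out (purple bar), its value with total-count scaling (orange square) and its value with the trend in length and GC removed (green triangle). Stat2, Ifngr2 and Ifngr1 stay above 0 and Jak2, Ifnar2 and Jak1 below 0 in all of these, while Stat3 and Ifnar1 change sign in 1 of them.

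Per kilobase of annotated exon, the order of the members in DMSO was led by Jak2 at 1017 ± 42.4 normalized counts and Jak1 at 842 ± 24.1. Ifnar2 followed at 580 ± 10.9, Ifnar1 at 481 ± 11.8, Ifngr1 at 444 ± 28.8 and Ifngr2 at 385 ± 7.99. Stat3 at 272 ± 5.60, Tyk2 at 175 ± 13.2 and Stat2 at 95.8 ± 2.91 were lowest (SD, n = 3). Of these neighbours, Ifnar1 and Ifngr1 were the 1 pair whose libraries overlapped. Stat2 thus had the least RNA of the members, at a level per kilobase above that of 28.2% of tested genes, whereas Jak2 was above 84.0% of them.

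The order was different after P3FI-90. Ifngr1 at 729 ± 56.6, Jak2 at 713 ± 16.3, Jak1 at 687 ± 20.02 and Ifngr2 at 676 ± 6.43 normalized counts per kilobase formed a top group in which neighbouring ranges overlapped. Ifnar1 at 506 ± 10.2 came before Ifnar2 at 441 ± 19.1 and Stat3 at 250 ± 5.60, with no overlap between them. Tyk2 at 194 ± 5.07 and Stat2 at 179 ± 11.7 were lowest and overlapped. The interferon gamma receptor chains, which ranked below the type I receptor chains in DMSO, thus came close to Jak1 and Jak2, but not to Tyk2. Ifngr1 overlapped both Jak1 and Jak2, whereas every Ifngr2 library was below every Jak2 library and within the range of Jak1. Levels between genes rest on the summed length of all annotated exons, from 2847 bases for Ifngr1 to 9527 bases for Stat3. Both orders, in DMSO and in P3FI-90, may differ with another length. For Jak1 the sum is 7227 bases and the longest transcript 4906, whereas both are 5030 for Jak2. Levels per length of the longest transcript were not computed.

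**Figure D4:**
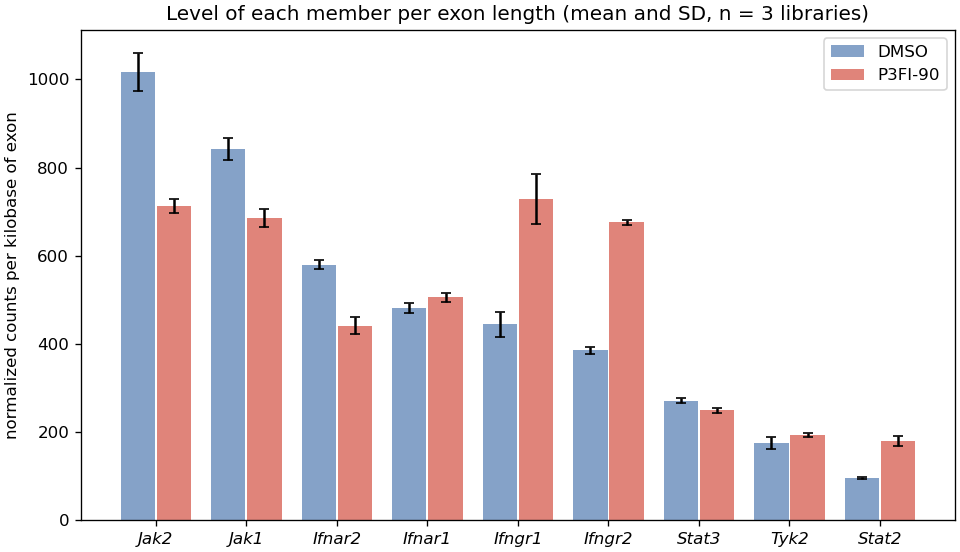
Mean normalized counts per kilobase of annotated exon of each member in DMSO (blue) and P3FI-90 (red), with SD over 3 libraries, ordered by the DMSO level. Jak2 falls from 1017 to 713 and Ifngr1 rises from 444 to 729, so that the interferon gamma receptor chains lie closer to Jak1 and Jak2 in P3FI-90. Tyk2, the other kinase, is below all receptor chains in both groups, at 175 and 194.

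The genes whose pattern over the 6 libraries was most like that of Stat2, by the root mean square difference of log2 CPM centred on DMSO, were Wdr62 (0.04), Scaf8 (0.04) and Polr1has (0.05). In all, 260 of 12287 genes lay within 0.1 of Stat2. For Jak2 the nearest were Vbp1 (0.02), Txnl1 (0.02) and Exosc3 (0.03), and 737 genes lay within 0.1. With 2 groups of libraries, such likeness says little more than that the fold changes are alike.

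Of the ligands, 17 of 21 listed interferon genes were at 0 in every library. Ifnb1, the first type I interferon made by most cells after nucleic acid sensing, had 0 counts in each DMSO library and 8, 15 and 6 counts in the P3FI-90 libraries. Ifnl3, a type III interferon, had 0 counts in DMSO and 0, 3 and 3 in P3FI-90, and Ifne had 3 counts in 1 P3FI-90 library. Ifnz was at 8, 8 and 9 counts in DMSO and 6, 14 and 11 in P3FI-90. None of them passed the filter on low counts, and interferon gamma was among the genes at 0. Without that filter, Ifnb1 was called higher (adjusted p = 0.00801 in edgeR over 15653 genes) and the other 3 were not. A count of 0 in a library allows up to 3 counts, for counting error only.

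The other signal carriers of the pathway also moved both ways, with 3 of 8 tested genes higher, 4 lower and a median log2 fold change of −0.12, against 39.9% higher, 39.4% lower and a median of 0.01 over all genes. With total counts 4 were higher and 3 lower, against 50.3% higher and 29.6% lower over all genes. Irf9, the DNA-binding subunit of ISGF3, rose with Stat2, from 490 ± 47.1 to 996 ± 18.1 normalized counts (log2 fold change 1.03, SE 0.08, adjusted p = 3.46e-08, edgeR). Ifnlr1, the chain particular to the interferon lambda receptor, rose from 378 ± 46.2 to 834 ± 9.27 (1.15, SE 0.09, adjusted p = 5.09e-08, edgeR), while its partner Il10rb fell. In the receptors of types I and III, 1 chain was lower.

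All 18 inhibitors of JAK-STAT signaling passed the test, 7 higher and 11 lower, with a median of −0.19, and 79.3% of all genes passed it, 39.9% higher and 39.4% lower. Usp18, which binds IFNAR2 and blocks its signaling, rose from 17.4 ± 4.93 to 169 ± 20.1 normalized counts (log2 fold change 3.28, adjusted p = 4.19e-08, edgeR). Ptpn6, the gene of the phosphatase SHP1, which acts on JAKs, fell from 1332 ± 34.0 to 548 ± 23.2 (−1.28, adjusted p = 3.31e-10, edgeR). Socs3, which blocks the kinases at receptors of the IL-6 family, fell from 968 ± 72.4 to 538 ± 20.1 (−0.85), whereas Socs7 rose by 1.48 and Socs4 by 1.13. With total counts, 7 of the 18 were higher and 4 lower, against 50.3% higher and 29.6% lower over all genes. With the trend in length and GC removed 4 were higher and 12 lower, against 34.1% higher and 45.3% lower over all genes.

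Of the other receptors that use JAK kinases, 6 of 18 tested rose, 4 fell and 8 passed in neither direction (median 0.28), against 39.9% higher and 39.4% lower over all genes. With total counts 8 rose and 2 fell, against 50.3% higher and 29.6% lower over all genes. Osmr, the oncostatin M receptor, which uses JAK1 and STAT3, rose from 457 ± 38.1 to 892 ± 25.9 normalized counts (log2 fold change 0.96, adjusted p = 8.24e-08, edgeR). Il12rb1 fell by 1.59 on the log2 scale, Il27ra by 0.83 and Il4ra by 0.33. Lepr, the leptin receptor, was at 0 in all DMSO libraries and at 24, 27 and 19 counts in P3FI-90, at least 20.4-fold higher against a floor of 3 counts over the DMSO group, or at least 10.2-fold if each read pair gave 2 counts.

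The lists of target genes were written by hand with earlier results of these data known. Among target genes, 27 of 30 tested targets of ISGF3 rose, 1 fell and 2 did neither, with a median of 2.16 against 0.01 over all genes, of which 39.9% rose and 39.4% fell. The 1 that fell was Ifit2, a protein that binds foreign RNA, at 1109 ± 77.4 and 716 ± 23.4 normalized counts (log2 fold change −0.63, adjusted p = 1.76e-06, edgeR). Rsad2, the antiviral protein viperin, rose from 7.94 ± 8.19 to 192 ± 18.5 (4.54, adjusted p = 1.11e-07, edgeR). Of 28 tested targets of interferon gamma, 18 rose, 5 fell and 5 did neither (median 0.54). The chemokine gene Cxcl10 rose from 29.6 ± 6.02 to 593 ± 45.0 (4.30, adjusted p = 1.03e-11, edgeR), while Psmb10, a subunit of the immunoproteasome, fell from 1312 ± 29.4 to 793 ± 25.9 (−0.73). The ISGF3 and interferon gamma lists have 0 genes in common, but they are not separate readouts of 2 ligands. Interferon gamma itself was at 0 in every library, and the study counts Cxcl10 among the genes induced with type I interferon. Other lists do share genes, such as Usp18 (ISGF3 targets and inhibitors), Socs3 (STAT3 targets and inhibitors) and Osmr (STAT3 targets and other receptors).

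Of 28 tested targets of STAT3, 8 rose, 15 fell and 5 did neither (median −0.22), against 39.9% higher and 39.4% lower over all genes. With total counts 11 of the 28 were higher and 10 lower, against 50.3% higher and 29.6% lower over all genes. Ccnd1, the gene of cyclin D1, fell from 40236 ± 2198 to 11859 ± 501 normalized counts (log2 fold change −1.76, adjusted p = 1.41e-13, edgeR), and Lcn2 fell by 1.68 on the log2 scale. Vegfa, a growth factor for vessels, rose by 1.69 and Klf4 by 1.78. These target genes respond to many factors besides the members, and RNA counts give no measure of receptor or STAT protein or of its phosphorylation.

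**Figure D5:**
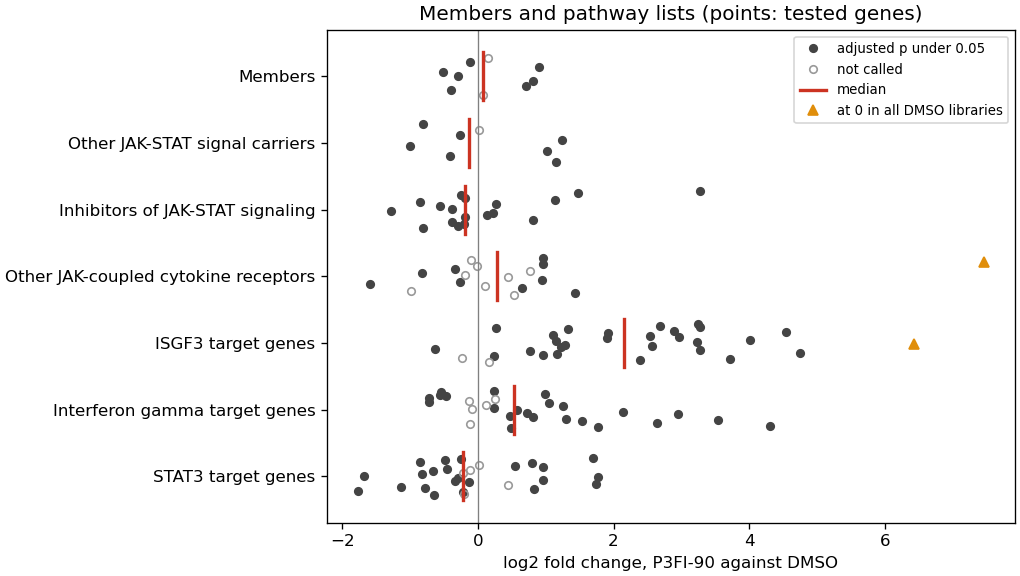
Log2 fold change of every tested gene of the members and of 6 lists of pathway genes (filled points passed an adjusted p of 0.05 in edgeR, open points did not, lines are medians). The members lie between −0.51 and 0.91, within the span of each other list, and the ISGF3 targets have the highest median, 2.16. Triangles mark 2 genes at 0 in all DMSO libraries, whose fitted values depend on the prior count.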

How the data were processed

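RNA-seq libraries of 4T1 cells, 3 with DMSO and 3 with 10 µM P3FI-90 for 24 h, were grouped by their sample labels. The authors deposited 1 table of read counts per gene, as whole numbers without normalization, and 31327094 to 37395732 counts per library fell on genes. The submitters' processing notes name CASAVA, HISAT2, StringTie and GRCm39 without versions. How counts were assigned to genes, the annotation and the strandedness are not given in the sources used here. In the first DMSO library 311 genes had a count of 2 and 81 a count of 1, so both mates of a pair may have been counted. Of 22401 rows, 285 with identifiers of assembled transcripts (0.483% to 0.556% of the counts) and 11 at 0 without a gene identifier were left out.

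Genes were filtered with filterByExpr and scaled by TMM in edgeR 4.0.16 (R 4.3.3), and 12288 genes were compared between the groups with the quasi-likelihood test and Benjamini-Hochberg adjustment at 0.05. The common biological coefficient of variation was 0.0648. Replicates differed by more than sampling noise, with a chi-square per gene of 5.58 to 8.60 between libraries of a group. Ratios between members within a library were compared with exact two-sided permutation tests. Gene lengths, overlapping exons and shared windows of 50 bases came from GENCODE M21, on GRCm38, and promoters from RefSeq. The test was tested on simulated data: of 100 genes changed by 1 log2 unit among 11429 it recovered 100, and of 100 changed by 0.5 it recovered 85, with 14 false calls among 199. In that simulation few genes changed, as many up as down, and all had the same spread, whereas 79.3% of the real genes passed. It therefore cannot give the rate of false calls under so broad a change or judge the choice of scaling.

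The members, the lists of pathway and marker genes and the tests were chosen with earlier results of these data known. The lists were written by hand from general knowledge. The rule named all members, up to 3 genes with the largest change in each direction of every list (passing the test, with a group mean of 20 or more normalized counts), ligands with a count, and the 3 genes nearest in pattern to the members with the largest rise and fall. Some genes that it names are not printed. Raver2, Gm21970, Stat5a, Kdm3b, the marker genes and the genes of the promoter and neighbour descriptions lie outside it.

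The alternatives replaced TMM by total counts, upper quartiles or the size factors of DESeq2, dropped the filter or asked for 10 counts in every library, used DESeq2 1.42.0, limma-voom (limma 3.58.1) or limma on log2 CPM as the test, added a replicate block, or left out 1 library. Chosen after the data were seen were removing a trend with length and GC, halving the counts, keeping the unnamed rows, and adding Gm21970 counts to Ifnar2.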

Additional observations from a re-analysis of the deposited data

How the results depend on the processing

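With total counts, 5 members were higher and 2 lower, 2 changed by more than 1 log2 unit, and Stat3 turned to 0.0930. In that setting 4 of the inhibitors and 2 of the other receptors were lower, and of all genes 50.3% were higher and 29.6% lower. Without a filter on low counts, 1 interferon ligand, Ifnb1, was called higher. After removal of a trend with length and GC, 4 inhibitors were higher, Ifnar1 turned to −0.0823, and Stat3 and Jak1 moved further down to −0.37 and −0.54. Of all genes, 34.1% were then higher and 45.3% lower. The causes of these changes were not tested. Ifnar2, Ifngr1, Ifngr2, Jak2 and Stat2 were called in the same direction under every alternative. The Jak1 call was lost with total counts and the Stat3 call without DMSO library 1 or P3FI-90 library 2. Tyk2 passed under 7 of 18 alternatives, among them leaving out DMSO library 1 (adjusted p = 0.0446) or library 2 (adjusted p = 0.0416). It did not pass without DMSO library 3 (adjusted p = 0.254, edgeR). Over all genes, 9249 to 9899 were called under the alternatives.

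Libraries with the same number did not deviate together (correlations of −0.02, 0.02 and 0.005 between their deviations from the group means), so the numbers were not read as pairs. With the replicate block, 9524 genes were called, 3 members were higher and 4 lower, and no member's call changed. For the ratios, the exact permutation test within the blocks cannot go below p = 0.25.

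The depth allowed the receptors, kinases and STATs to be measured with counting errors of 1.33% to 4.35% of the mean count per library, or 1.88% to 6.14% if each read pair gave 2 counts. The interferon ligands, at no more than 15 counts in a library, were below the filter of the test. The 3 libraries per group limit every p-value of a ratio to 0.1. Levels per kilobase depend on the annotated exon length, and where Jak1, Tyk2 and Stat3 overlap genes on the opposite strand, counts could not be told apart if strand was not used.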
